A study of Mus musculus with 24 samples.

Results

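The hippocampus of 4 mice aged 16 months was compared with that of 4 mice aged 3 months, all taken 1 h after contextual fear conditioning. These 8 arrays, of 24 in all, are the ones titled old_fear and young_fear, and each of 4 slides carried 1 of each. The mice were C57Bl/6, a common inbred strain, with no transgene or other treatment named. In the training a mouse explored a new chamber for 3 min and then received a single foot shock of 0.7 mA for 2 s. Handled mice of both ages, 4 of 16 months and 4 of 3 months, were treated alike except for the training, and they give the age difference without it on the same 4 slides. Each array held Cy3-labelled RNA of 1 mouse, which makes the mouse the unit of replication. The p-values of the fit below rest on a spread between mice of the same group, estimated over all 24 arrays.

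Contextual fear conditioning teaches an animal to link a place with a shock, and the hippocampus is needed to store the memory of the place. Neurons that fire during training switch on immediate early genes such as Fos and Arc within minutes, while stress hormones act on glucocorticoid-induced genes over a similar time. A dissected hippocampus also carries glia, vessels and strips of ventricle lining, among them ependymal cells, which bear motile cilia, and choroid plexus, which makes cerebrospinal fluid. In the ageing mouse brain, complement and interferon-related genes are known to rise.

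Levels are given as the log2 of the background-corrected spot signal minus the array's 75th percentile, so that a level of 0 is the signal of a moderately bright probe. A difference of 1 on this scale is a 2-fold change. A gene was called where limma's test with Benjamini-Hochberg adjustment over 26089 genes gave an adjusted p under 0.05, and adjusted p-values below come from it. On the 8 arrays of conditioned mice the 75th percentile of signal lay between 1152 and 2137, and 89.36 to 94.01% of probes were well above background. All 37 listed markers of hippocampal excitatory neurons passed the filter on dim probes. Array 2 of the handled 16-month mice stood apart from the rest of its group. In 6617 of the 9880 genes called between the ages after conditioning, the arrays of conditioned 3-month mice lay outside the range of the other 12 arrays of handled and conditioned mice. The arrays of conditioned 16-month mice did so in 54 of these genes. Both counts cover only genes already called between these groups, of 26089 tested.

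After conditioning, 9880 genes differed between the ages, of which 6478 were higher and 3402 lower at 16 months. That is 37.9% of the genes tested, 24.8% higher and 13% lower, and 2103 of the called genes passed a 2-fold difference. In 42.8% of all genes the 4 arrays of one age did not overlap with the 4 of the other. In handled mice 190 genes differed, 0.728% of those tested, with 124 (0.475%) higher and 66 (0.253%) lower at 16 months and 2519 genes at an unadjusted p under 0.05. Without 1 array the handled count ran from 86, without array 4 of the 16-month mice, to 285, without array 2 of the same group. It was 96 without array 3 of that group and 101 without array 2 of the 3-month mice. The test of the difference between both age differences (interaction) called 6227 genes, or 23.9%, with 15.8% in the higher and 8.02% in the lower direction, and it called 5879 of the 9880 genes, or 59.5%.

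Each age's own response to training is given beside this, on arrays that partly overlap with those of the age comparison. Conditioned against handled mice differed in 11286 genes at 3 months, or 43.3%, with 13.1% higher and 30.2% lower after training. Quantile normalization gave 4657 higher and 5921 lower there. At 16 months it was 37 genes, or 0.142%, with 0.123% higher and 0.0192% lower. That count ran from 6, without array 4 of the conditioned 16-month mice, to 132, without array 1 of the handled ones, and was 0 with normexp background correction, with 982 genes at an unadjusted p under 0.05, and 135 with quantile normalization. The median gene was 0.26 higher at 16 months after conditioning. The values that follow are therefore to be read against 0.26 and not against 0. The calls themselves test a difference from 0. The median shift itself varied with the level of the gene. The split of calls moved with the scaling. Of called genes 65.6% were higher with the 75th percentile, 54.1% with quantile normalization, 56.2% with median scaling, 52.8% in the deposited values and 71.0% with normexp background correction. The median gene moved likewise, to 0.101, 0.171, 0.0545 and 0.599.

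**Figure D1:**
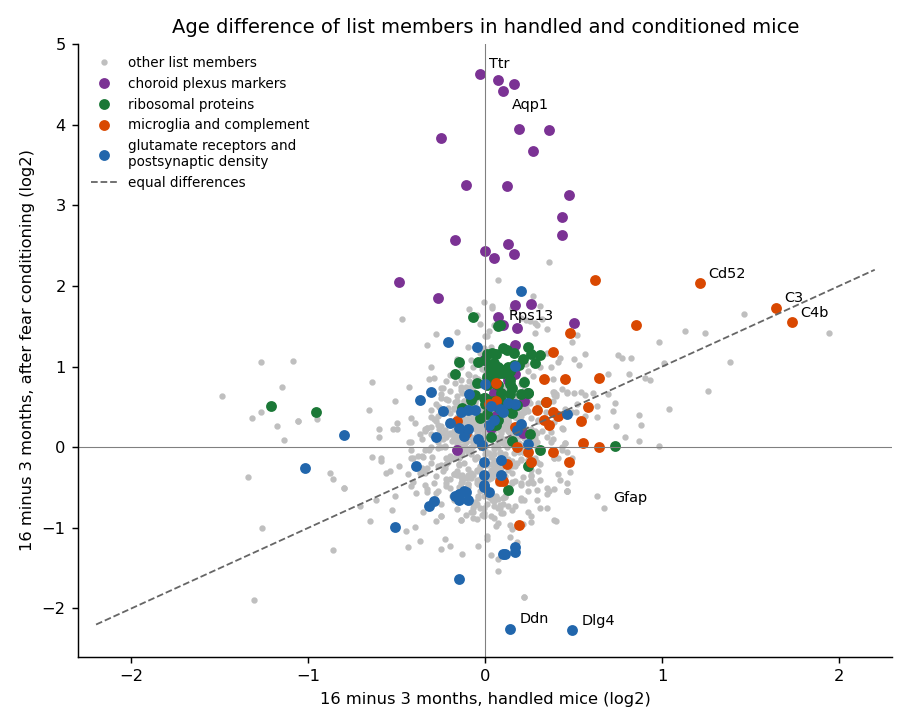
Each point is a member of a gene list. Choroid plexus, ribosomal protein, microglia and complement, and glutamate receptor and postsynaptic density lists are coloured. Grey points are members of the other lists. The x axis is the log2 difference, 16 minus 3 months, in handled mice and the y axis the same in conditioned mice; choroid plexus markers reach above 4 on the y axis with values near 0 on the x axis.

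The widest age difference of any list lay in the choroid plexus markers. Of 37 measured markers, 32 were higher at 16 months after conditioning and 0 lower, with a median log2 difference of 2.05, or 1.79 above that of all genes. Each scaling gave 31 or 32 higher and 0 lower. In handled mice 0 of the 37 differed, and the interaction called 30, each with the higher difference after conditioning. In bulk tissue, fewer cells of a type and less RNA per cell cannot be told apart.

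The level of Ttr, the thyroid hormone carrier transthyretin and the most abundant product of this tissue, was 3.71, 3.79, 4.19 and 4.14 on the arrays of conditioned 16-month mice. On those of conditioned 3-month mice it was -1.69, -1.89, 0.20 and 0.68. All arrays of the younger mice lay below all arrays of the older ones, with arrays 1 and 2 the lowest. The difference was 4.63 ± 0.46 (SE of the fit, n = 4 and 4; adjusted p = 1.47e-07), or 24.8-fold. In handled mice Ttr stood at 3.92, 3.79, 4.45 and 4.33 at 16 months and at 4.55, 4.74, 3.51 and 3.81 at 3 months. Those groups overlapped, and the conditioned 3-month mice lay below both of them.

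Kcne2, a potassium channel subunit of the choroid epithelium, had levels of 1.69, 1.80, 2.08 and 1.92 in the older and -3.71, -3.59, -1.70 and -1.72 in the younger conditioned mice. The groups were far apart, by 4.55 ± 0.40 (adjusted p = 3.65e-08). For Aqp1, the water channel aquaporin 1, levels were 0.46, 0.62, 0.58 and 0.82 against -4.71, -4.54, -3.01 and -2.93. Again arrays 1 and 2 of the younger mice were the lowest, and the difference was 4.42 ± 0.37 (adjusted p = 2.41e-08). Steap1, a member of a metalloreductase family, differed by 4.50, the chloride channel family member Clic6 by 3.94 and the folate receptor Folr1 by 3.24. Smaller but called differences were found for the collagen Col8a1, at 2.85, and the cation channel Trpv4, at 2.63. Over the whole list the median deviation from the genes' own means was 0.284 to 0.552 on the arrays of conditioned 16-month mice, 0.438 to 1.04 in handled 16-month mice, 0.332 to 0.897 in handled 3-month mice and -1.94 to -1.38 in conditioned 3-month mice. The 4 low arrays are those of the conditioned 3-month mice, for a list of genes that share a tissue bordering the hippocampus. How much of this tissue each sample held was not tested.

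Ependymal and other ciliated cells, which line the ventricle, gave the same sign at a smaller size. Of 30 markers 21 were higher and 1 was lower at 16 months after conditioning, with a median of 1.0. In handled mice 4 were higher and 0 lower. The interaction called 11 with the age difference shifted upward in conditioned mice and 1 with it shifted downward. Cfap126, a protein of ciliary axonemes, had levels of 1.50, 1.51, 1.53 and 1.72 against -0.92, -0.86, -0.58 and -0.56. The groups were well separated, by 2.29 ± 0.16 (adjusted p = 2.14e-09), or 4.91-fold. Tekt1, a tektin of the ciliary microtubules, differed by 1.88, and Fam183b, another ciliary protein, by 1.59. Spag6, a protein of the central pair of motile cilia, differed by 1.42 ± 0.14 after conditioning and by 1.24 in handled mice (adjusted p = 6.29e-05), and the interaction did not pass (adjusted p = 0.567).

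The promoters of ciliary genes often hold the X-box half-site of RFX factors, with the letters GTTGCC or, on the other strand, GGCAAC. Among members with a match, promoters of the 2 with the lowest adjusted p after conditioning are shown. Both promoters happen to hold the letters at 2 places, in capitals. They are RefSeq promoters of GRCm38.p6, 300 bases around the start of the gene, Fam183b at chr11:58801911-58802210 (minus strand) and Tekt1 at chr11:72361833-72362132 (minus strand).
Fam183b: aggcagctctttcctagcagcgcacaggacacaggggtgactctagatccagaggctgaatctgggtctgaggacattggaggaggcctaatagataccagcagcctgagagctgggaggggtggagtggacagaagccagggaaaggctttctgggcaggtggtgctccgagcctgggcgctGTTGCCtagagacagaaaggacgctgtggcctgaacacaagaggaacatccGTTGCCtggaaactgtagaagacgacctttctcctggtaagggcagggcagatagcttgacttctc
Tekt1: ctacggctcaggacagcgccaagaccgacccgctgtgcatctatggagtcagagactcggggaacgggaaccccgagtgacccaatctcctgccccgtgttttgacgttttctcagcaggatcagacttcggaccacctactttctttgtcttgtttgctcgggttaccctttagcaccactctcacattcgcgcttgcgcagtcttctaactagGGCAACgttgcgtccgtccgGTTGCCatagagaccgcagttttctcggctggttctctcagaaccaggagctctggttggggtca
Of 32 promoters matched to 26 of the 30 ependymal genes, 43.8% held these letters on either strand, against 12.5% of 32851 RefSeq mouse promoters. Among the 14 genes with a match 11 were higher at 16 months after conditioning, with a median of 1.04. Among the 12 without one 8 were higher, with a median of 0.565. A match describes letters in this window only.

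**Figure D2:**
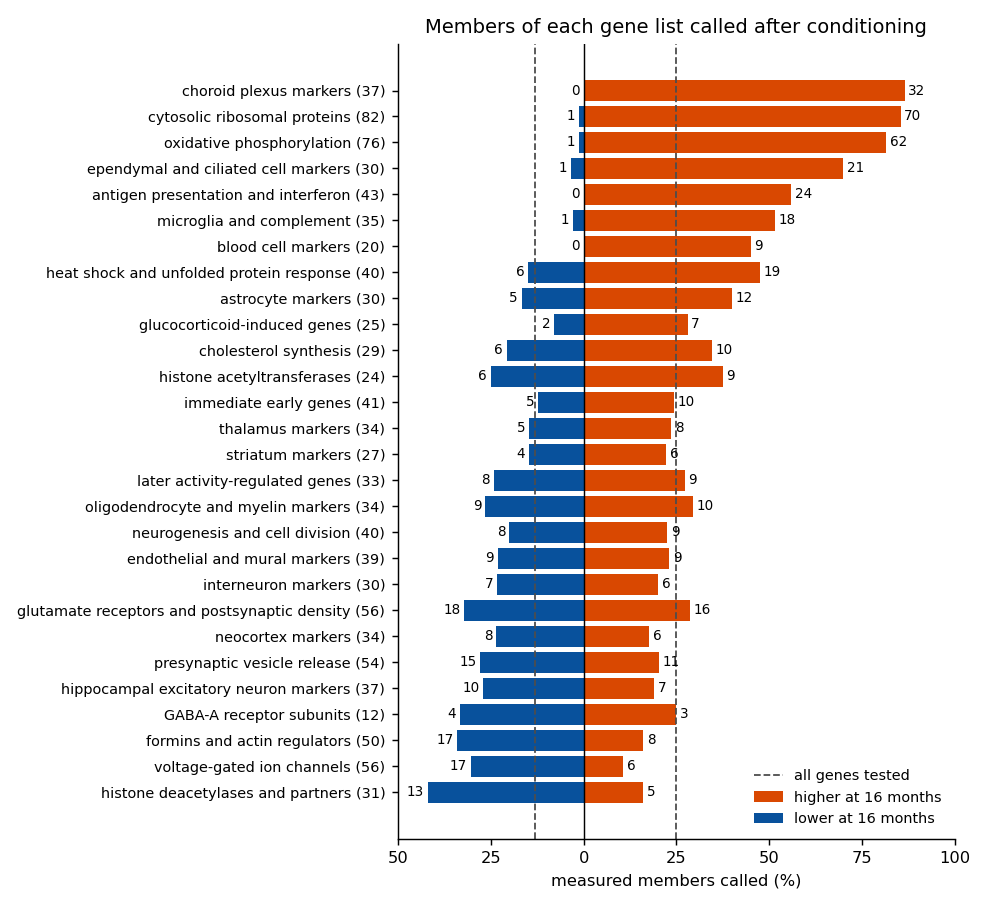
Bars give, for each gene list, the percentage of measured members called higher (right) or lower (left) at 16 months after conditioning. Choroid plexus, ribosomal protein and oxidative phosphorylation lists have over 80% of members called and nearly all of these higher, against 37.9% of all genes.

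Genes for the ribosome and for the respiratory chain, which every cell uses, were also called almost all in one direction. Of 82 cytosolic ribosomal proteins 70 were higher and 1 was lower at 16 months after conditioning, with a median of 0.79. In handled mice 0 differed. The interaction called 57 with the age difference shifted upward in conditioned mice and 2 with it shifted downward. With quantile normalization 53 were higher and 3 lower, with a median of 0.458, and in the deposited values 51 were higher and 2 lower. The median deviation of the list was 0.0563 to 0.276 on the arrays of the older and -0.666 to -0.627 on those of the younger conditioned mice, a narrow band well below. Rps13, of the small subunit, had levels of 6.04, 6.10, 6.01 and 5.86 against 4.55, 4.50, 4.46 and 4.45. The groups lay apart by 1.51 ± 0.09 (adjusted p = 4.63e-10), or 2.85-fold. Rps27l differed by 1.62, Rps7 by 1.50 and Rpl34, of the large subunit, by 1.17. Rpl10a, also of the large subunit, was the member that fell, at -0.53.

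Of 76 genes of oxidative phosphorylation 62 were higher and 1 was lower, with a median of 0.72, and in handled mice 0 differed. Quantile normalization left 49 higher and 1 lower. Cox7a2, a subunit of cytochrome c oxidase, had levels of 5.22, 5.42, 5.37 and 5.53 against 3.66, 3.67, 3.60 and 3.78. No array of the younger mice came near the older ones, and the difference was 1.71 ± 0.12 (adjusted p = 3.61e-09). Ndufb3 and Ndufa1, both subunits of complex I, differed by 1.75 and 1.64, and Cox6c, of cytochrome c oxidase, by 1.44. Sdha, the catalytic subunit of complex II, was the member that fell, at -0.22. Cox8b, the muscle isoform of a cytochrome c oxidase subunit, which was not in the list, had the widest age difference of any named gene. Its levels were 0.87, 0.73, 1.65 and 1.72 against -3.68, -3.58, -3.14 and -3.22, a difference of 4.65 ± 0.30 (adjusted p = 1.2e-09). It was also higher at 16 months in handled mice, by 1.53 (adjusted p = 0.0153).

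The ribosomal promoters shown were chosen in the same way. They hold the letters CTTCCG or, on the other strand, CGGAAG, in capitals, the core letters of ETS factor sites. Rps13 lies at chr7:116334141-116334440 (minus strand) and Rps27l at chr9:66945836-66946135 (plus strand) of GRCm38.p6.
Rps13: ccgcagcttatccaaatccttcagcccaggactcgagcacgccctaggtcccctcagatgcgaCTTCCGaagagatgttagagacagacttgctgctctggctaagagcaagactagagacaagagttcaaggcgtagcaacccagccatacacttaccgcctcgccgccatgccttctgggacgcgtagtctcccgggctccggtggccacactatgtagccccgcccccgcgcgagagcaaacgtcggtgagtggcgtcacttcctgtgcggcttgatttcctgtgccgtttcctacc
Rps27l: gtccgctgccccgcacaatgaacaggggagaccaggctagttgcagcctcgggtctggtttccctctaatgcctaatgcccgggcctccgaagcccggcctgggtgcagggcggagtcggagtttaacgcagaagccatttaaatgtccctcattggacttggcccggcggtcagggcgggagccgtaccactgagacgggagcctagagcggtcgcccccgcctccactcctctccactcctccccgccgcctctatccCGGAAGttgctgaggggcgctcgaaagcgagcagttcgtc
Of 72 promoters matched to 61 of the 82 ribosomal genes, 62.5% held these letters on either strand, against 16.9% of all RefSeq mouse promoters. The age difference did not follow the match: the median was 0.845 over the 42 genes with it, of which 37 were higher, and 0.9 over the 19 without it, of which 17 were higher.

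**Figure D3:**
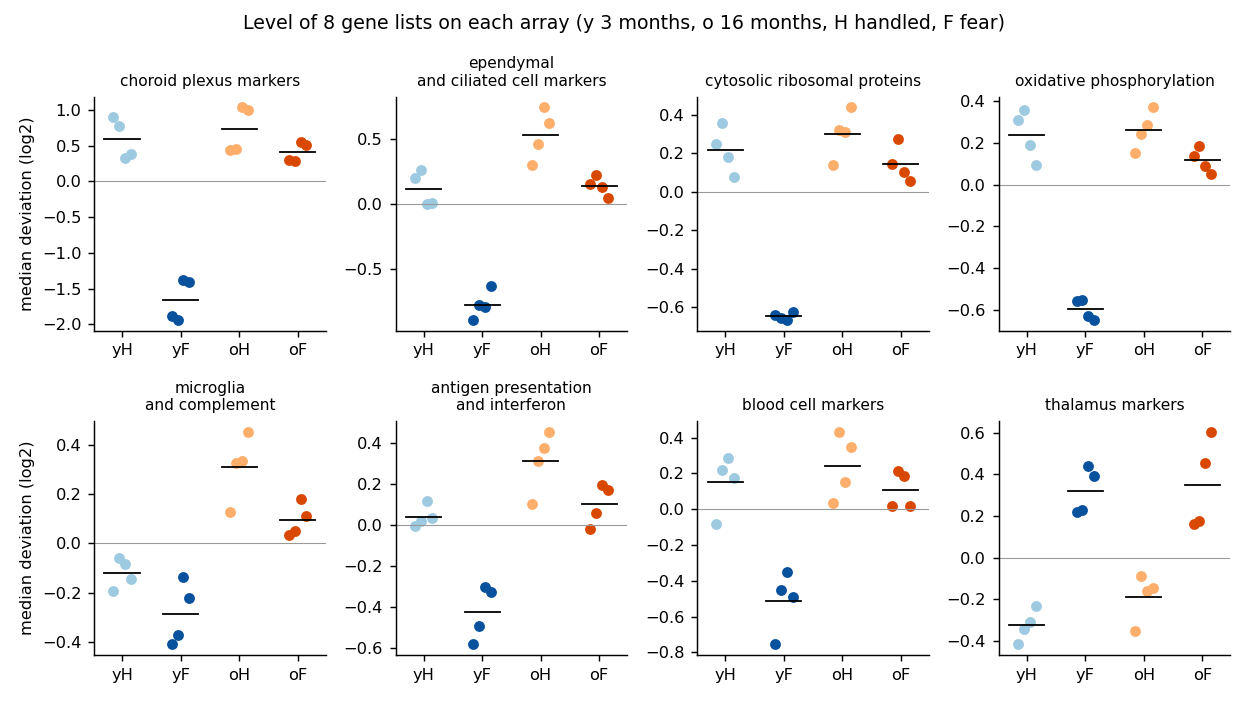
Each point is 1 array and gives the median, over the members of a list, of the log2 deviation from each gene's mean over the 16 arrays; groups are 3 or 16 months, handled or conditioned. In the choroid plexus, ependymal, ribosomal and oxidative phosphorylation panels the 4 arrays of conditioned 3-month mice lie below the other 12 arrays.

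Probes of the same gene often disagreed. Of 2764 genes with at least 2 called probes, 1073, or 38.8%, had probes called in opposite directions after conditioning. In handled mice it was 0 of 11. The probes of Grm5, the metabotropic glutamate receptor mGluR5, and of Rph3a, the synaptic vesicle protein rabphilin, are shown because a pair of probes under 1000 bases apart moved in opposite directions. In both the downstream probe was the lower one at 16 months, which was the less frequent order at this distance. The last 30 bases of each probe are given, 5′ to 3′ along the gene, with positions of the whole probe in the mm9 build as the files give them. Their place in an exon or UTR was not analysed here.
Grm5 upstream probe, chr7:95280099-95280158 (plus strand): ctctttcaccatgttgccaatcaatactgg
Grm5 downstream probe, chr7:95280993-95281052 (plus strand): agttggcccagccttatattaaagatagcc
Rph3a upstream probe, chr5:121391927-121391986 (minus strand): catcttcaggtccccttgggcactggtgaa
Rph3a downstream probe, chr5:121391012-121391071 (minus strand): tttcccatcttgatagttttgccccatcaa

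The upstream probe of Grm5 had levels of 2.86, 2.87, 3.07 and 3.04 in older and 0.99, 0.97, 1.04 and 1.07 in younger conditioned mice. The downstream probe had -1.73, -1.66, -1.58 and -1.59 against -0.08, -0.06, 0.00 and 0.03. So the younger mice were lower by the one probe and higher by the other, with differences of 1.94 ± 0.17 and -1.61 ± 0.08 (adjusted p = 2.83e-08 and 8e-11, over every probe). For Rph3a the upstream probe had 1.39, 1.11, 1.65 and 1.50 against -1.02, -1.0, -0.22 and -0.39. Its downstream probe had 0.28, 0.15, 0.50 and 0.36 against 1.56, 1.54, 2.01 and 1.93. The signs were opposed as in Grm5, at 2.07 ± 0.19 and -1.44 ± 0.14, and no pair of groups overlapped. In handled mice none of these 4 probes differed between the ages (adjusted p of 0.783 to 0.966).

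Over 6176 genes with probes placed apart on one strand, the downstream minus the upstream probe was compared in 5 bins of distance. At 200 to 1000 bases apart, 1018 genes gave a median age difference of 0.18 after conditioning and -0.05 in handled mice. The median was 0.87 to 0.95 on the arrays of older and 0.63 to 0.82 on those of younger conditioned mice, without overlap (two-sided exact permutation p = 0.0286, the smallest that 4 against 4 can give, and 0.143 adjusted over the 5 bins). At 30000 to 200000 bases apart, 1085 genes gave -0.28, with overlap between the groups (exact p = 0.143). There 108 of 213 genes with both probes called, or 50.7%, had them called in opposite directions, and in 84 of the 108 the downstream probe was the lower. At 200 to 1000 bases it was 53 of 254, or 20.9%, and the downstream probe was the lower in 15 of the 53. No bin passed after adjustment. By GC content of the probe the median difference was 0.16 to 0.23 in every bin. By mean level of the gene it was 0.40, 0.33, 0.17, 0.06 and 0.28 in 5 bins of equal size from the lowest to the highest.

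The hexamer AATAAA precedes the site where most messengers are cut and given their poly(A) tail, so a probe with it near the 3′ end may lie close to the end of the messenger. Whether the hexamer marks a used site in these probes was not tested. Ends of 4 such probes of named genes are shown with the hexamer in capitals, as the last 30 bases with the whole probe's mm9 position.
Aqp1 probe, chr6:55298480-55298539 (plus strand): tcttatggtaagaaAATAAAggacaatgac
Cox6c probe, chr15:35861751-35861810 (minus strand): tgtgctaaggaatagtttctttcAATAAAc
Cox7a2 probe, chr9:79603227-79603286 (minus strand): attgatgtgtattaactgctgccAATAAAg
Rps13 probe, chr7:123475037-123475096 (minus strand): taaatgctgttgtgtgcacaagcAATAAAa
Among 38768 probes of 60 bases, read on the probe's own strand, 1141 held the hexamer starting at base 31 to 55. Of these 44.7% were called higher and 7.01% lower at 16 months after conditioning, with a median of 0.44. Probes with it starting at base 1 to 30 numbered 583, with 23.2% higher, 20.8% lower and a median of 0.16. The 37044 probes without it had 22.2% higher, 17.2% lower and a median of 0.20. With ribosomal and oxidative phosphorylation genes left out, 1115 probes with the hexamer at base 31 to 55 had a median of 0.42.

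Late minus early hexamer probes gave a median deviation of 0.11, 0.16, -0.03 and -0.01 on the arrays of older and -0.18, -0.18, -0.38 and -0.34 on those of younger conditioned mice. The groups did not overlap (exact p of these array values = 0.0286, or 0.057 adjusted over the tests in conditioned and handled mice). In handled mice the exact p of such array values was 0.886. A separate measure is the median age difference of late probes minus that of early ones. It was 0.28 after conditioning and -0.00 in handled mice. This comparison by hexamer position was chosen after the data were seen. The ribosomal, respiratory and choroid plexus results above rest on probes of which some hold the hexamer near their 3′ end. What part probe position has in these results was not tested, nor was it tested for any other gene below.

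**Figure D4:**
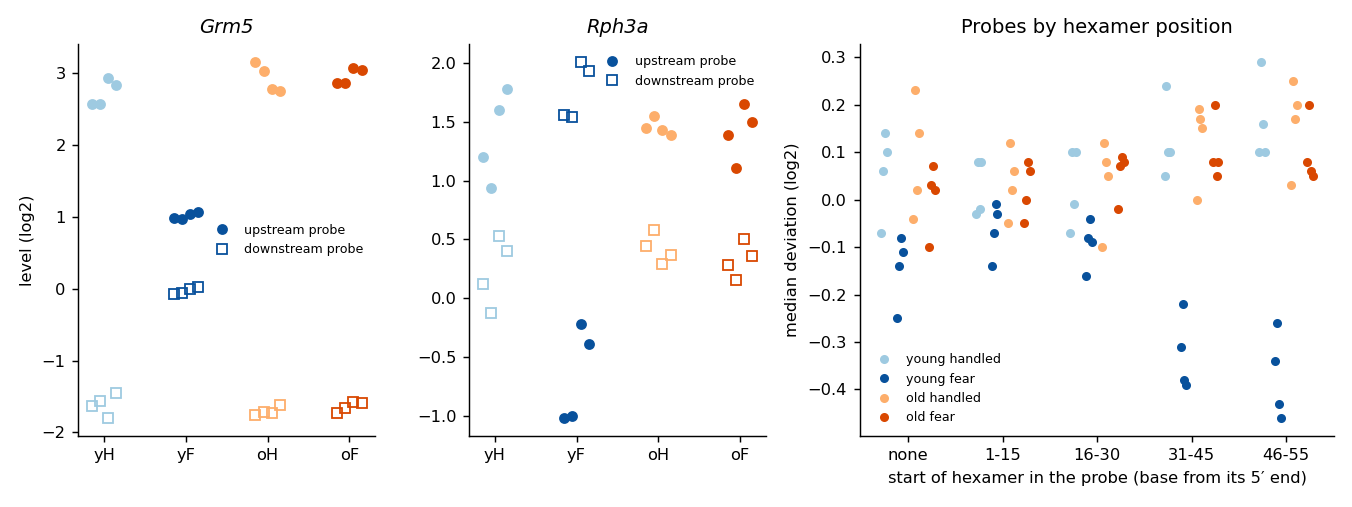
Left and middle, levels (log2) of the upstream and downstream probes of Grm5 and Rph3a on each array, by age and training. Right, median log2 deviation of probes by where AATAAA starts, 1 point per array of handled and conditioned mice. In conditioned 3-month mice the upstream probes are lower and the downstream probes higher than in the other 3 groups. Among conditioned mice, the arrays of the 2 ages do not overlap for hexamers starting at base 16 to 30, 31 to 45 or 46 to 55.

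Complement and microglial genes differed by age with and without training. Of 35 genes 18 were higher and 1 lower at 16 months after conditioning, with a median of 0.39, and in handled mice 8 were higher and 0 lower, with a median of 0.36. Over all genes 24.8% were higher and 13% lower after conditioning, and 0.475% and 0.253% in handled mice. Complement C4b had levels of 1.28, 1.35, 1.49 and 1.34 against -0.28, -0.08, -0.20 and -0.19 in conditioned mice. The groups were separate, by 1.55 ± 0.12 (adjusted p = 1.09e-08), or 2.93-fold. In handled mice C4b differed by 1.73 ± 0.12 (adjusted p = 3.19e-08), and the interaction, at -0.18, did not pass (adjusted p = 0.51). Complement C3 differed by 1.73 after conditioning and by 1.64 in handled mice (adjusted p = 4.96e-05), and the interaction did not pass (adjusted p = 0.836). Cd52, a small surface glycoprotein of leukocytes, had levels of -0.36, -0.41, -0.35 and -0.20 against -2.53, -2.48, -2.24 and -2.17. It differed by 2.03 ± 0.13 after conditioning and by 1.21 in handled mice, and here the interaction passed (0.82, adjusted p = 0.00276). Ctss, the protease cathepsin S, differed by 1.41 after conditioning and Aif1, the microglial protein Iba1, by 1.18. The member that fell was Itgam, the integrin CD11b, at -0.96. The homeostatic microglial genes P2ry12, Tmem119 and Cx3cr1 were not called, at -0.21, 0.05 and -0.06.

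Of 43 genes of antigen presentation and the interferon response, 24 were higher and 0 lower after conditioning, with a median of 0.55. That is 55.8% called, beside 37.9% of all genes. In handled mice 2 were higher, among them Psmb8, an immunoproteasome subunit, at 0.56 (adjusted p = 0.00807). After conditioning Psmb8 differed by 1.16 ± 0.10 (adjusted p = 3.05e-08), its partner subunit Psmb9 by 1.17, the proteasome activator Psme2 by 1.00 and the antiviral protein Bst2 by 1.56. B2m, the light chain of class I molecules, was called at 0.39 ± 0.14 (adjusted p = 0.0304) with overlapping arrays, and the call was lost with quantile normalization (adjusted p = 0.206). Blood cell markers moved in the same direction: 9 of 20 were higher and 0 lower, with Hba-a1, an alpha globin, at 1.09 and the neutrophil protein S100a9 at 1.65. The median deviation of the blood list was 0.0175 to 0.216 on the arrays of older and -0.755 to -0.353 on those of younger conditioned mice, and its part in the immune lists was not tested.

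Synaptic genes were called in both directions. Of 56 genes for glutamate receptors or postsynaptic density proteins 16 were higher and 18 lower at 16 months after conditioning, or 60.7% called. Of 54 presynaptic genes 11 were higher and 15 lower, or 48.1%, beside 37.9% of all genes. In handled mice 0 of either list differed. With quantile normalization the counts were 9 higher and 21 lower, and 1 higher and 19 lower. Dlg4, which encodes the scaffold protein PSD-95, had levels of -1.21, -1.09, -1.13 and -1.27 against 1.13, 1.06, 1.10 and 1.09 in conditioned mice. Both groups were tight and far apart, by -2.27 ± 0.23 (adjusted p = 1.87e-07), or 4.83-fold lower at 16 months. Ddn, the dendritic protein dendrin, had levels of 1.42, 1.49, 1.36 and 1.16 against 3.86, 3.80, 3.18 and 3.58. It was lower in every older mouse, by -2.25 ± 0.15 (adjusted p = 1.57e-09). Slc17a7, the vesicular glutamate transporter of excitatory neurons, had 0.91, 0.65, 1.02 and 0.99 against 2.43, 2.45, 3.09 and 3.04. It fell by 1.86 on the log2 scale (adjusted p = 2.06e-06).

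Prkca, protein kinase C alpha, and the endocytic GTPase Dnm1 each differed by -1.33, the complexin Cplx1 by -0.86 and the vesicle SNARE Vamp2 by -0.82. In the other direction stood Shank1, another postsynaptic scaffold, at 1.24, beside the brighter probes of Grm5 and Rph3a described above. Camk2a, the kinase most tied to hippocampal plasticity, was not called, at -0.16 (adjusted p = 0.329), and was called with quantile normalization, at -0.50 (adjusted p = 0.00196). A dimmer probe of Camk2a was called higher, at 0.91 (adjusted p = 0.00393, over every probe). Of 56 voltage-gated and related channel genes 6 were higher and 17 lower, or 41.1% called beside 37.9% of all genes. Kcnk2, the background potassium channel TREK-1, had levels of -2.56, -2.51, -2.78 and -2.70 against -0.49, -0.54, -0.53 and -0.42. Older mice lay below younger ones without overlap, by -2.14 ± 0.12 (adjusted p = 1.81e-10), or 4.42-fold. The Kv4 channel partner Kcnip2 differed by -1.34. GABA-A receptor subunits divided as well, 3 higher and 4 lower of 12, or 58.3% called. Gabra4 was at 0.88 and Gabra5, which is abundant in the hippocampus, at -0.68.

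**Figure D5:**
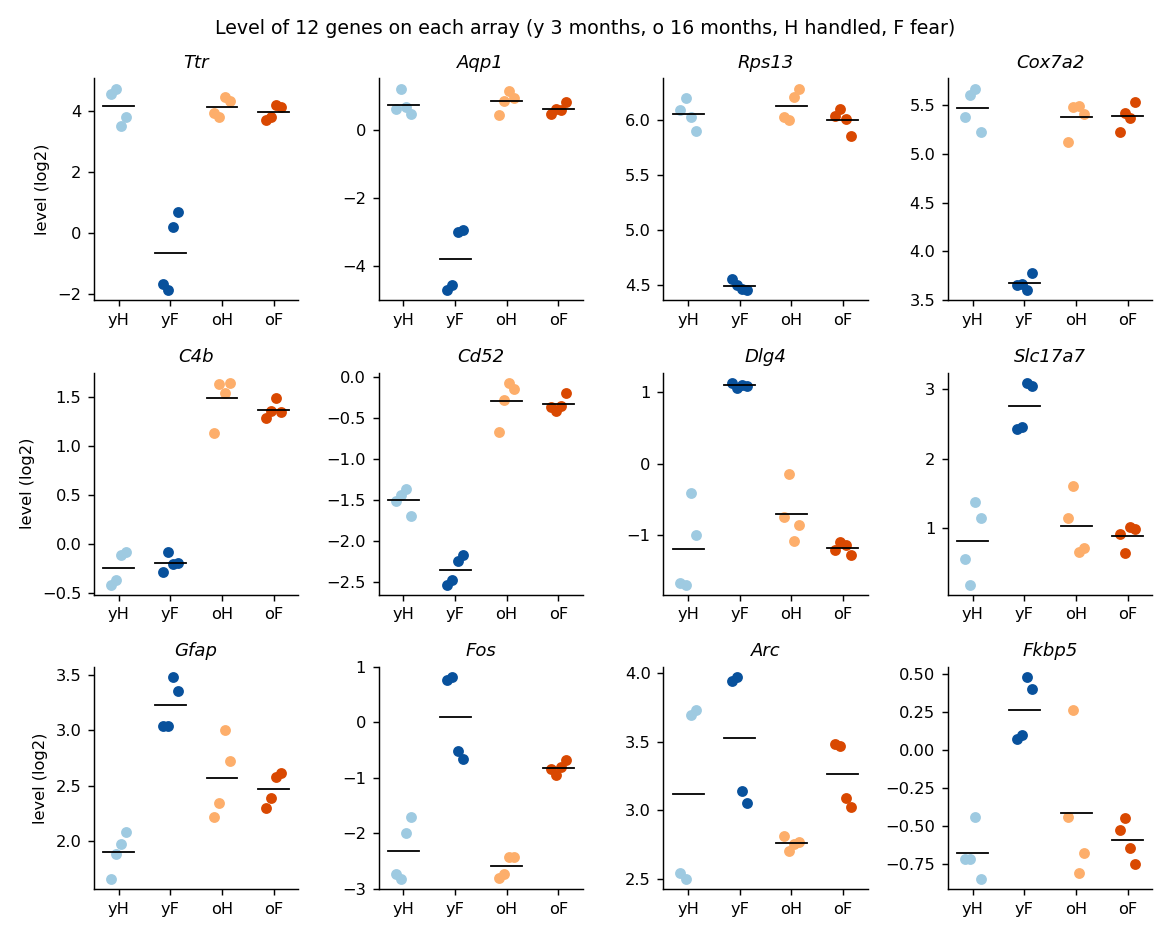
Levels of 12 genes (log2 signal minus the array's 75th percentile), 1 point per array, for handled and conditioned mice of 3 and 16 months. Dlg4 and Slc17a7 are high and Ttr, Aqp1, Rps13 and Cox7a2 low in conditioned 3-month mice, while C4b separates the ages in both conditions.

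Chromatin and actin regulators were called in both directions too. Of 31 histone deacetylases and partners 5 were higher and 13 lower at 16 months after conditioning, and 4 and 12 with quantile normalization. The main count is 58.1% called. Over all genes 37.9% were called, 24.8% higher and 13% lower. Hdac4, a class IIa deacetylase that shuttles between cytoplasm and nucleus, had levels of 0.34, 0.36, 0.17 and 0.19 against 1.58, 1.47, 1.46 and 1.44. It was lower in all older mice, by -1.22 ± 0.10 (adjusted p = 1.52e-08), or 2.33-fold. Sirt2, a tubulin deacetylase of the sirtuin family, differed by -0.81, Hdac6, also a tubulin deacetylase, by -0.68 and Rbbp4, a histone-binding subunit of deacetylase complexes, by 1.60. Dimmer probes of Rbbp4 were at 0.49, which was called, and at 0.54 and 0.08, which were not. Of 24 histone acetyltransferases 9 were higher and 6 lower, or 62.5% called. Kat2a, the acetyltransferase GCN5, was among the lower ones at -1.12, as was Kat6b at -0.81.

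Of 50 formins and actin regulators 8 were higher and 17 lower. Fmn2, a formin that nucleates actin filaments, had levels of -0.72, -0.66, -0.99 and -1.0 against -0.08, -0.06, 0.18 and 0.16. The groups did not overlap, and the difference was -0.89 ± 0.12 (adjusted p = 8.83e-06), or 1.86-fold. A dimmer probe of Fmn2 was not called, at 0.34. Another formin, Fmnl1, differed by -1.39 and the cortical actin protein Cttn by -1.28. By their brightest probes the GTPase Cdc42 and the formin Diaph2 were higher, at 1.08 and 1.72. Further probes of Cdc42 were not called, at 0.18, 0.20 and 0.08. Those of Diaph2 were at 0.71, which was called, and at -0.04, which was not.

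Immediate early genes, which report recent firing, were called about as often as all genes: 15 of 41, or 36.6% beside 37.9%, with 10 higher and 5 lower at 16 months after conditioning and a median of 0.058. The direction of the majority turned with the scaling, to 7 higher and 8 lower with quantile normalization (median -0.112) and 6 and 7 in the deposited values. The 2 ages' responses to training are given side by side and share arrays with the age comparison. Fos, the transcription factor most used as a mark of active neurons, had levels of -0.84, -0.94, -0.80 and -0.68 in older and 0.77, 0.82, -0.52 and -0.66 in younger conditioned mice. Arrays 1 and 2 of the younger mice were high, and arrays 3 and 4 lay just above the older mice. The age difference was -0.91 ± 0.29 (adjusted p = 0.0171). It was no longer called without array 1 or array 2 of the younger mice (adjusted p = 0.0779 and 0.0795), nor with the slide as replicate block (adjusted p = 0.058). Against handled mice of the same age Fos rose by 2.41 at 3 months (adjusted p = 1.51e-06) and by 1.78 at 16 months (adjusted p = 0.0113). These responses did not differ by the interaction test (-0.63, adjusted p = 0.311).

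Arc, an activity-regulated protein of dendrites, had levels of 3.48, 3.47, 3.09 and 3.02 against 3.94, 3.97, 3.14 and 3.05. The arrays overlapped, and arrays 1 and 2 were the higher ones at both ages. Its age difference was -0.26 ± 0.26 (adjusted p = 0.454). This and the tests that follow are against 0, while the median gene was at 0.26. Egr1 differed by -0.11 (adjusted p = 0.659), Egr2 by -0.14 (adjusted p = 0.737), Npas4 by -0.43 (adjusted p = 0.173), Nr4a1 by 0.00 (adjusted p = 0.999) and Fosb by -0.30 (adjusted p = 0.384), and none of these was called. All 5 encode transcription factors. Junb, at -0.28, and the phosphatase Dusp1, at -0.33, were not called either (adjusted p = 0.207 and 0.0763), and were called in the deposited values (adjusted p = 0.0246 and 0.0417). Klf6, a zinc-finger transcription factor, was higher at 16 months, with levels of 1.86, 1.77, 1.71 and 1.79 against 0.94, 0.98, 0.84 and 0.65. The groups were apart by 0.93 ± 0.10 (adjusted p = 3.72e-07). The small Maf factor Maff differed by 0.91 as well.

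Among 33 later activity-regulated genes, 9 were higher and 8 lower, with a median of -0.0014, and 6 and 10 with quantile normalization. The main count is 51.5% called, beside 37.9% of all genes. Homer1, a postsynaptic scaffold whose short form is induced by activity, differed by -0.99 (adjusted p = 1.24e-05), the granule protein Scg2 by -0.95 and the cAMP-responsive repressor gene Crem by 0.49. Bdnf, the neurotrophin, was called at 0.24 (adjusted p = 0.0469), and the call was lost with the slide as block (adjusted p = 0.0506). The call is against 0, and the value lies near the 0.26 of the median gene.

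Of 25 glucocorticoid-induced genes 7 were higher and 2 lower, or 36.0% called, near the 37.9% of all genes. With quantile normalization, as in the deposited values, it was 4 higher and 3 lower. The metal-binding metallothionein Mt2 had levels of 5.79, 6.09, 5.83 and 5.90 against 4.36, 4.47, 4.45 and 4.62. It was higher in every older mouse, by 1.43 ± 0.13 (adjusted p = 4.49e-08), or 2.69-fold. Pdk4, a kinase that inhibits pyruvate dehydrogenase, differed by 0.94, the lipid droplet protein Plin4 by 0.91 and the transcription factor Cebpd by 0.76. Fkbp5, a co-chaperone that dampens the glucocorticoid receptor, went the other way. Its levels were -0.53, -0.45, -0.65 and -0.75 against 0.07, 0.10, 0.48 and 0.40, lower in all older mice by -0.86 ± 0.18 (adjusted p = 0.000732). Other probes of Fkbp5 were at -0.80, which was called, and at 0.20, which was not. The kinase Sgk1 was not called, at 0.25 (adjusted p = 0.113).

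Glial genes were mixed. Of 30 astrocyte markers 12 were higher and 5 lower, and of 34 oligodendrocyte and myelin markers 10 were higher and 9 lower. That is 56.7% and 55.9% called, beside 37.9% of all genes. With quantile normalization both majorities turned, to 7 higher and 8 lower and to 7 higher and 12 lower. Gfap, the intermediate filament of astrocytes, had levels of 2.30, 2.39, 2.58 and 2.61 in older and 3.04, 3.04, 3.48 and 3.35 in younger conditioned mice. It was lower at 16 months without overlap, by -0.75 ± 0.15 (adjusted p = 0.000301). In handled mice it was higher at 16 months, by 0.67 (adjusted p = 0.0304), and the interaction passed (-1.42, adjusted p = 5.39e-05). Other astrocyte genes stood higher after conditioning, with glutamine synthetase, Glul, at 1.58 and the calcium-binding protein S100b at 1.30. Among oligodendrocyte genes Olig1, a lineage transcription factor, differed by -0.96 and the myelin protein Mal by -0.73, whereas Enpp2, at 2.43, is also in the choroid plexus list.

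Markers of neighbouring regions were called near the background rate: 13 of 34 for thalamus, 10 of 27 for striatum and 14 of 34 for neocortex. The median deviation of the thalamus list was 0.16 to 0.606 in older and 0.221 to 0.443 in younger conditioned mice, which overlapped, and -0.416 to -0.0901 in handled mice. Prkcd, a protein kinase C isoform dense in thalamus, differed by -0.60 after conditioning (adjusted p = 0.00217) and by 0.63 in handled mice (adjusted p = 0.0414), and the interaction passed (-1.23, adjusted p = 0.000185). Of 37 markers of hippocampal excitatory neurons 7 were higher and 10 lower, or 45.9% called, with a median of 0.05. Of 30 interneuron markers 6 were higher and 7 lower, or 43.3%. Of 40 genes of neurogenesis and cell division 9 were higher and 8 lower, or 42.5% (9 and 9 with quantile normalization). Over all genes the share was 37.9%. Among the neurogenesis and cell division genes called were the granule lineage factor Neurod1, at -0.90, and the replication clamp Pcna, at 0.69.

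Some age differences were present in both conditions, on arrays that the handled and conditioned comparisons do not share. Of the 190 genes called in handled mice 126, or 66.3%, were called in the same direction after conditioning, which is 1.28% of the genes called after conditioning. These were 96 of the 124 genes higher and 30 of the 66 lower in handled 16-month mice. Over all genes 24.8% were called higher and 13% lower after conditioning. The opposite direction was called after conditioning for 5 of the 124 genes higher and 17 of the 66 lower in handled 16-month mice. Wdfy1, an adaptor with WD repeats and a FYVE domain, had levels of -0.55, -0.55, -0.27 and -0.18 against 1.57, 1.57, 1.62 and 1.62 in conditioned mice. It was lower at 16 months by -1.99 ± 0.10 (adjusted p = 3.98e-11) after conditioning and by -1.69 in handled mice (adjusted p = 1.28e-09), and the interaction did not pass (adjusted p = 0.136). After conditioning its other probes were called at -0.81 and, in the opposite direction, at 1.76. Lrmda, a leucine-rich repeat protein, had levels of -1.30, -1.21, -1.01 and -1.24 against -4.30, -3.97, -4.01 and -3.94. It was higher in all older mice, by 2.87 ± 0.10 (adjusted p = 1.19e-13) after conditioning and by 1.97 in handled mice (adjusted p = 1.9e-10), and the interaction passed (adjusted p = 9.93e-05). Npy1r, a receptor for neuropeptide Y, was lower in both, at -1.36 and -0.68. The sulfotransferase Sult1c2 was higher in both, at 4.14 and 2.14.

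Among the other genes with the widest age differences after conditioning, Lars2, the mitochondrial leucyl-tRNA synthetase, had levels of 7.95, 8.11, 8.56 and 8.11 against 3.07, 3.04, 4.44 and 5.30. The older mice were above the younger ones without overlap, by 4.22. The guidance cue Ntn1 differed by -2.16, the kinase gene Cdkl4 by -2.38 and the glycogen synthase kinase gene Gsk3a by -1.97. With normexp background correction Ntn1 was no longer called (adjusted p = 0.924) and Cdkl4 turned to 0.40 (adjusted p = 0.634). The transcript A530053G22Rik and the homeobox gene Gsc were not well above background on any array of conditioned 3-month mice and were at least 12.5-fold and at least 3.9-fold higher at 16 months. These bounds set the older mice's mean against the lowest signal well above background on each younger mouse's array, or the probe's own where that was higher.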

How the data were processed

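Of 24 Agilent 1-colour arrays, 1 per mouse in 6 groups of 4, all entered the fit. The deposited scanner files hold a spot intensity with background subtracted and no scaling between arrays, made by Feature Extraction 9.5.3.1, per the file headers. The deposited value table was taken to be log2 from its values. Its column medians are 8.659 to 8.663, and its centring between arrays is unstated. It served as an alternative. The headers name mm7 for the arrays used here and mm9 for the later scanning run; probe positions are the mm9 ones.

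From the log2 of the processed signal the 75th percentile of its array was subtracted. Control spots were dropped and outlier spots set to missing. A probe was kept if 4 or more of the 24 arrays showed it well above background, and the brightest probe on average represented its gene. Of 41174 probes, 25097 were named by accession, 6333 by symbol, 1640 by synonym and 8104 not at all. Group means of all 24 arrays were fitted in limma 3.58.1 (R 4.3.3), with lmFit and eBayes, two-sided, and 18 residual degrees of freedom. The SE is that of the fit. The fit was tested on simulated data. Single values were tested by exact permutation of 4 against 4 arrays.

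The gene lists, the rule for named genes and the array-pair settings (array 1 with 2 and array 3 with 4, outside the later scanning run) were chosen with earlier results of these data known, and lists are described by counts and medians. Within such pairs the consensus correlation was 0.369, and the labels do not say why. The main fit takes no account of it. Named genes come from a set of the 12 largest rises and falls, in each list up to 5 members with the lowest adjusted p, the 6 of lowest adjusted p in each direction that also passed in handled mice, 6 in each direction of lowest interaction p, and a panel of genes. Outside that rule, members named because they fell or were not called in a list (Rpl10a, Sdha, Itgam, P2ry12, Tmem119, Cx3cr1) were picked after their values were seen. Replicate numbers of the control and fear groups mark the slide. Deviations of same-numbered old_fear and young_fear arrays correlated at 0.545, 0.0437, 0.412 and 0.158, so they were not taken to pair mice. Alternatives were other scalings, normexp with offset 50, other filters, every probe, the deposited values, the slide or array pairs as block, array pairs averaged, fewer arrays in the fit, eBayes with trend and robust, and each array left out.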

Additional observations from a re-analysis of the deposited data

Results flagged for a closer look

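Among 34 genes and 28 lists, the 4 arrays of each conditioned group were searched for 1 lying far from the other 3, in 124 groups. Its gap was past the 95% value of the Dixon test in 4 of them, where chance gives about 1 in 20. Cfap126, the ciliary gene, stood at 1.72 on array 4 of the conditioned 16-month mice, with the next at 1.53 and the lowest at 1.50. The median deviation of the later activity-regulated genes was -0.0785 on array 1 of the conditioned 3-month mice, with the next at -0.0405. That of the GABA-A receptor subunits was -0.121 on array 3 of the conditioned 16-month mice, with the next at 0.024. That of the formins and actin regulators was 0.105 on array 2 of the conditioned 3-month mice, with the next at 0.0588.

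The age difference itself differed between conditioned and handled mice in 6227 genes by limma's interaction test. Of the named genes, Gfap and Prkcd were called in opposite directions. Gfap, the astrocyte filament gene, was at -0.75 after conditioning and 0.67 in handled mice, an interaction of -1.42. Prkcd was at -0.60 and 0.63, an interaction of -1.23.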

How the results depend on the processing

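The count of 9880 genes after conditioning became 5486 with normexp background correction, 6428 with array pairs averaged and 15455 with every probe tested. Leaving out 1 conditioned array gave 8823 to 9272. The count of 190 in handled mice became 16 with normexp, 4 with array pairs averaged, 41 with array pairs as a random block, 92 with only the 16 control and fear arrays, and 86 to 285 with 1 array left out. The interaction count of 6227 became 2011 with normexp, 2325 with array pairs averaged and 10032 with every probe, and 5354 to 6747 with 1 array left out. With the slide as fixed replicate block, the counts were 11306 after conditioning, 102 in handled mice and 6591 for the interaction, and with the slide as a random block 359 in handled mice. Of 114 genes followed through all alternatives 104 were called, and 92 of these kept direction and call throughout. Normexp ended 10 calls, array pairs averaged ended 4, and the replicate block ended 2 (Fos and Bdnf). Cdkl4 reversed with normexp, to 0.40. The causes were not tested. Of the calls named, those of Fos, B2m and Bdnf were lost without some single array. With 4 mice a group the smallest exact p is 0.0286.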
